A study of Mus musculus with 12 samples.

Results

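The proteasome genes followed here are 42 mouse genes, taken by symbol from the known composition of the enzyme, out of 56980 genes counted. They encode the 7 alpha and 7 beta subunits of the constitutive 20S core, the 6 ATPases, 4 other base subunits and 8 lid subunits of the 19S regulatory particle, 3 assembly chaperones of the 19S base, the activators Psme3 and Psme4, and 5 assembly chaperones of the 20S core. They were listed by that composition and not by their values, though earlier results of these data were known when they were chosen. All 42 passed the filter on low counts, with 41 to 37536 counts per gene and library.

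The proteasome is the protease that degrades proteins tagged with ubiquitin in the cytosol and nucleus. The 20S core is a barrel of stacked rings: alpha rings gate the entrance, and the inner beta rings carry the proteolytic sites of Psmb5 (chymotrypsin-like), Psmb6 (caspase-like) and Psmb7 (trypsin-like). The 19S particle binds the ubiquitin chain, removes it, and unfolds and threads the substrate with its ring of ATPases, while other caps such as Psme3 (PA28 gamma) and Psme4 (PA200) open the core without ATP. Cells whose proteasome is inhibited are known to raise transcription of its subunit genes through the transcription factor NRF1, encoded by Nfe2l1, which is otherwise degraded after leaving the endoplasmic reticulum.

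The cells were NIH/3T3, an established line of mouse embryonic fibroblasts labelled wild type, and polyadenylated RNA was sequenced after 8 h of treatment. Carfilzomib (CFZ, 200 nM) is an irreversible proteasome inhibitor whose main target is the Psmb5 site. Doxorubicin (DOX, 5 µM), an anthracycline, binds DNA and traps topoisomerase II on it. There were 3 libraries each with CFZ, with DOX, with both drugs at the same doses (CFZ-DOX) and with the DMSO vehicle. The labels do not say whether the 3 libraries of a group came from separate cultures, so p-values measure the spread between these libraries, which may be technical. All results concern a single cell line, 1 dose of each drug and 1 time.

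The 12 libraries held 28278879 to 42033993 counts, and 16648 genes were tested. DOX 3 and CFZ-DOX 3 stood apart from the other libraries of their groups on the third principal component (DOX 3 at -60.6 against 6.66 and -7.14, CFZ-DOX 3 at -24.6 against 43.0 and 32.6). DOX 3 was the lowest of its group for 39 of the 42 proteasome genes (39.7% of all genes tested) and CFZ-DOX 3 for 32 (39.5%). DMSO 1 was likewise the lowest of its group for 35 (40.6%), but the gap was smaller. The summed level of the 42 genes (RPKM, CPM per kilobase of exon) was 1887 in DOX 3, against 2445 and 2510 in DOX 1 and DOX 2. This sum was 2214 in CFZ-DOX 3, against 2564 and 2774 in CFZ-DOX 1 and CFZ-DOX 2. In DMSO 1 it was 1860, against 2002 and 1945 in DMSO 2 and DMSO 3. Ribosomal protein transcripts took 4.08% ± 0.255 of the counts with CFZ, 6.85% ± 0.289 with DOX, 10.0% ± 0.345 with CFZ-DOX and 4.06% ± 0.176 with DMSO (mean ± SD, n = 3), and the direction of changes in the DOX-treated cells depended on how libraries were scaled. The 7 fibroblast markers were present, with summed levels of 11467 to 16448 CPM (counts scaled to a common library size) with CFZ, 23318 to 47124 with DOX, 30456 to 69888 with CFZ-DOX and 19629 to 23933 with DMSO. Collagen genes and Vim made up most of these sums, and the receptor genes were not highest with DOX: Pdgfra averaged 138 CPM with CFZ, 35.1 with DOX, 26.9 with CFZ-DOX and 161 with DMSO, and Pdgfrb 45.1 CPM with CFZ, 74.6 with DOX, 51.0 with CFZ-DOX and 187 with DMSO. The 9 markers of epithelial, immune and endothelial cells summed to 3.69 to 5.08 CPM with CFZ, 6.66 to 8.49 with DOX, 13.6 to 17.6 with CFZ-DOX and 4.91 to 6.33 with DMSO, and only Adgre1 among them was at 0 counts in every DOX and DMSO library. The macrophage gene Cd68 averaged 1.37 CPM with CFZ, 3.48 with DOX, 11.5 with CFZ-DOX and 1.16 with DMSO, and the endothelial gene Pecam1 0.0855, 1.80, 1.86 and 0.131 CPM with CFZ, DOX, CFZ-DOX and DMSO. The epithelial gene Cdh1 went the other way, at 0.524, 1.36, 0.439 and 2.89 CPM in the same order. Cdh5, another endothelial gene, had log2 fold changes relative to DMSO of -0.48 for DOX and -0.33 for CFZ-DOX (SE 0.33 each). The remaining markers did not pass the filter on low counts. The part of these differences in the results was not tested.

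Carfilzomib raised every 20S core gene and every 19S subunit gene among the 42. The exception among known subunits is Sem1, a small lid protein with functions outside the proteasome that was kept in the list of partners, at 61.5, 72.6 and 68.4 CPM with CFZ, against 62.8, 68.1 and 66.6 CPM with DMSO (log2 fold change 0.04, SE 0.18, adjusted p = 0.916 in edgeR). Of the 42 proteasome genes 35 were higher and 2 lower with CFZ than with DMSO (edgeR's quasi-likelihood F test, called where the p adjusted after Benjamini and Hochberg over all genes tested was under 0.05), against 14.4% of all genes tested higher and 14.4% lower. The rise was at least 2-fold for 23 of them, against 5.90% of all genes tested. The median log2 fold change was 1.03, a 2.05-fold rise, against -0.01 over all genes tested. Together the 42 genes took 1.22% ± 0.0361 of all counts with CFZ, against 0.590% ± 0.0212 with DMSO. In bulk RNA, a change in the number of cells and a change in RNA per cell cannot be told apart.

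**Figure D1:**
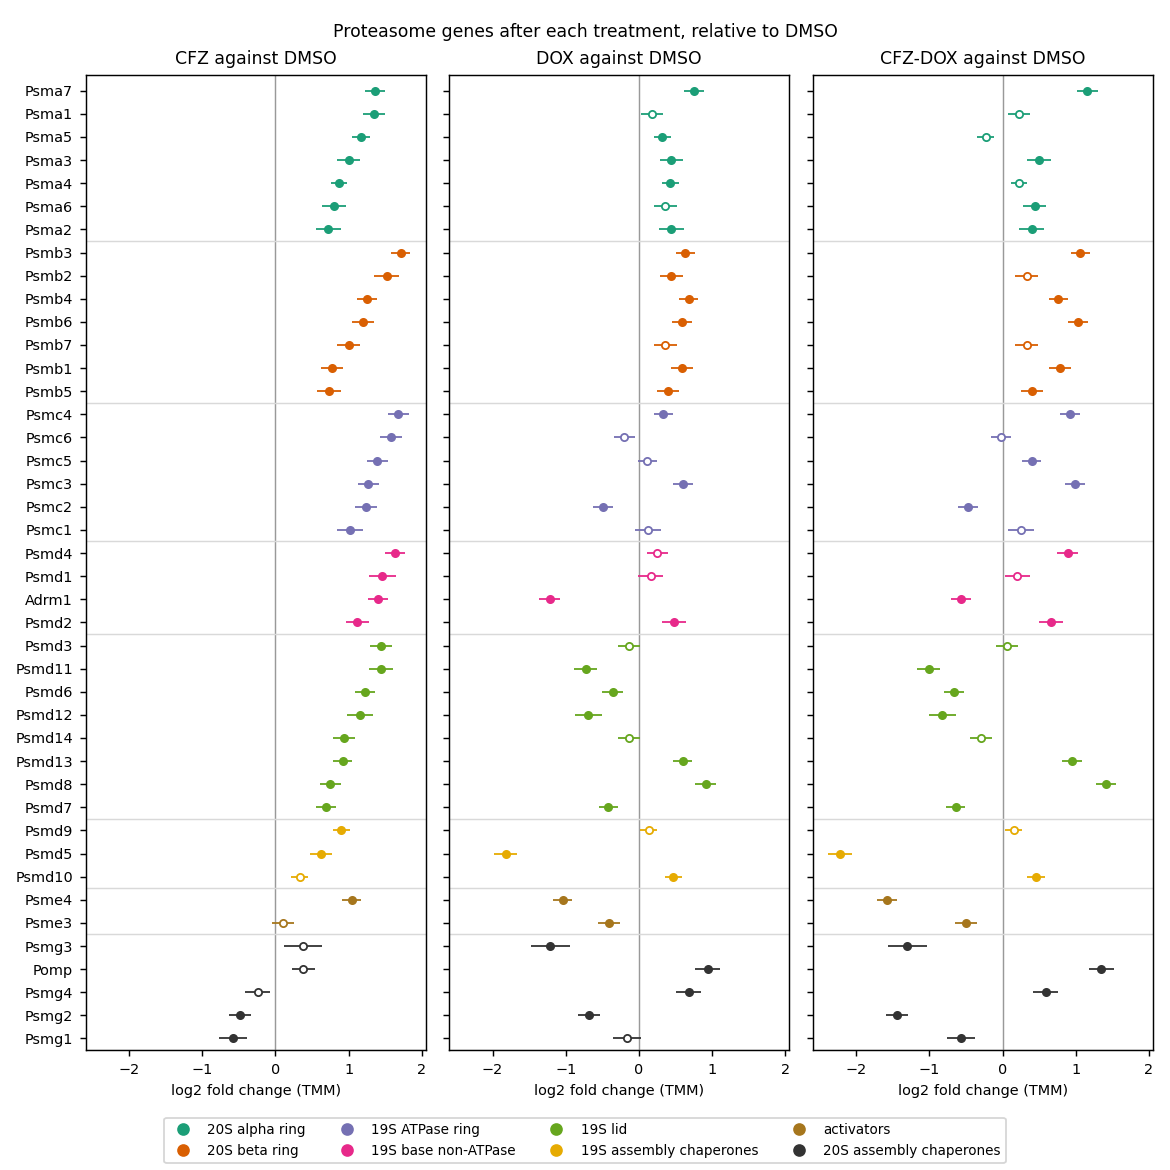
Log2 fold change (x axis) of each of the 42 proteasome genes (y axis, grouped by subcomplex and sorted by the CFZ value) with CFZ, DOX and CFZ-DOX relative to DMSO. Bars are ± 1 SE of the fit, and filled points passed an adjusted p under 0.05 while open points did not. With CFZ the subunit genes lie between 0.69 and 1.71, while with DOX and CFZ-DOX the lid, base and chaperone genes lie on both sides of 0.

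All 7 alpha ring genes rose, with a median log2 fold change of 1.0. The largest were those of Psma7 (log2 fold change 1.36, SE 0.14, edgeR adjusted p = 9.69e-06) and Psma1 (1.35, SE 0.15, adjusted p = 1.83e-05). Psma5 rose by 1.17, Psma3 by 1.0, Psma4 by 0.87, Psma6 by 0.80 and Psma2 by 0.72 on the log2 scale. These 7 subunits form the outer rings, whose N-terminal tails close the channel until a cap docks.

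All 7 beta ring genes rose too, with a median of 1.19, and the non-catalytic Psmb3 had the largest change of all 42 genes. Psmb3 (ENSMUSG00000069744, GRCm39 chromosome 11, 97594225 to 97604326, plus strand) stood at 314, 311 and 313 CPM with CFZ, against 90.5, 97.9 and 98.3 CPM with DMSO. The 3 CFZ libraries were all above the 3 DMSO libraries and differed little among themselves. The rise was 3.27-fold (log2 fold change 1.71, SE 0.13, edgeR adjusted p = 8.46e-07). Psmb2, another non-catalytic subunit, rose by 1.52 on the log2 scale, Psmb4 by 1.25 and Psmb1 by 0.77.

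The gene of the main subunit that carfilzomib binds had the smallest fold change among the beta ring genes, within the SE of that of Psmb1. Psmb5 (ENSMUSG00000022193, chromosome 14, 54851576 to 54855479, minus strand) stood at 63.3, 66 and 63.3 CPM with CFZ, against 37.1, 40.7 and 38.2 CPM with DMSO. The groups did not overlap, and the rise was 1.66-fold (log2 fold change 0.73, SE 0.16, edgeR adjusted p = 0.00286). Psmb6, which encodes the caspase-like subunit, had 285, 293 and 296 CPM with CFZ, against 120, 132 and 132 CPM with DMSO (log2 fold change 1.19, SE 0.15, adjusted p = 3.99e-05). Psmb7, which encodes the trypsin-like subunit, had 255, 259 and 277 CPM with CFZ, against 126, 132 and 136 CPM with DMSO (log2 fold change 1.0, SE 0.16, adjusted p = 0.000427). Both were higher in every CFZ library than in any DMSO library. Exons of Psmb7 share 405 bases with Nek6 on the opposite strand, and Nek6 counts came to 13% of those of Psmb7 over all libraries, so the 2 genes may share reads if counting ignored strand. Per kilobase of exon, the level (RPKM) of Psmb6 was 156 ± 3.10 with CFZ and 68.4 ± 3.76 with DMSO, that of Psmb7 77.0 ± 3.37 with CFZ and 38.4 ± 1.58 with DMSO, and that of Psmb5 71.4 ± 1.74 with CFZ and 43.0 ± 2.03 with DMSO (SD, n = 3 each).

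The 19S base responded most, with medians of 1.33 for the 6 ATPase genes and 1.43 for the 4 other base genes; these medians were not tested against those of the other subcomplexes. Psmc4 (ENSMUSG00000030603, chromosome 7, 27741132 to 27749526, minus strand), which encodes an ATPase of the unfolding ring, stood at 319, 333 and 320 CPM with CFZ, against 99.4, 107 and 97.6 CPM with DMSO. The CFZ libraries were again all higher, by 3.20-fold (log2 fold change 1.68, SE 0.14, edgeR adjusted p = 1.52e-06). The other ATPase genes rose by 1.58 (Psmc6), 1.39 (Psmc5), 1.27 (Psmc3), 1.23 (Psmc2) and 1.02 (Psmc1) on the log2 scale. Psmc3 shares exon bases with Slc39a13 on the other strand, whose counts were 9.35% of its own. The ubiquitin receptor gene Psmd4 had 290, 285 and 303 CPM with CFZ, against 91.2, 98.6 and 94.0 CPM with DMSO (log2 fold change 1.63, SE 0.14, adjusted p = 2.81e-06). Adrm1, another ubiquitin receptor gene of the base, had 334, 346 and 320 CPM with CFZ, against 121, 136 and 122 CPM with DMSO (log2 fold change 1.40, SE 0.14, adjusted p = 8.43e-06). No CFZ library overlapped the DMSO range for Psmd4 or Adrm1. The large scaffold genes Psmd1 and Psmd2 rose by 1.46 and 1.12.

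All 8 lid genes rose, with a median of 1.04. Psmd3 and Psmd11, both encoding structural lid subunits, rose by 1.44 each, Psmd6 by 1.22 and Psmd12 by 1.15 on the log2 scale. Psmd14, which encodes the deubiquitinase that removes ubiquitin chains at the entrance, stood at 176, 170 and 194 CPM with CFZ, against 91.8, 96.1 and 93.4 CPM with DMSO. Each CFZ library exceeded all DMSO libraries (log2 fold change 0.94, SE 0.15, edgeR adjusted p = 0.000455). Psmd13 rose by 0.92, Psmd8 by 0.75 and Psmd7, whose product pairs with that of Psmd14, by 0.69.

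The chaperones of the 19S base and those of the 20S core differed in their counts. Among the 3 chaperone genes of the 19S base, Psmd9 (log2 fold change 0.90, SE 0.12, edgeR adjusted p = 7.65e-05) and Psmd5 (0.62, SE 0.15, adjusted p = 0.00779) rose, and Psmd10, which encodes gankyrin, was not called (0.33, SE 0.12, adjusted p = 0.0506, or 0.0316 in the fit blocked by replicate number). Psmd10 was higher in every CFZ library, and DESeq2 (adjusted p = 0.00416) and limma-voom (adjusted p = 0.0449) called it, so both gave 3 of 3 higher. The Psmd5 call was lost when libraries were scaled to ribosomal protein genes (adjusted p = 0.175).

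Of the 5 chaperone genes of the 20S core, none rose and 2 fell in edgeR. Limma-voom and DESeq2 each gave 0 higher and 2 lower, and the unadjusted edgeR p was under 0.05 for 1 higher and 2 lower. Psmg1 (ENSMUSG00000022913, chromosome 16, 95781133 to 95792160, minus strand) stood at 14.8, 16.2 and 16.1 CPM with CFZ, against 22.9, 24.9 and 22.6 CPM with DMSO. Its partner in alpha ring assembly, Psmg2, had 17.0, 16.9 and 16.5 CPM with CFZ, against 23.1, 23.7 and 23.8 CPM with DMSO. Both were lower in every CFZ library, with log2 fold changes of -0.58 (SE 0.19, edgeR adjusted p = 0.0326) and -0.49 (SE 0.15, adjusted p = 0.0239). Leaving out any 1 of CFZ 1, CFZ 2, CFZ 3, DMSO 1, DMSO 2 and DMSO 3 ended both calls, with 0 of the 42 genes then lower and 2 lower at an unadjusted p under 0.05. Pomp, which encodes the maturation factor of the beta rings, was not called (0.38, SE 0.16, adjusted p = 0.103, and 0.0463 with the replicate block), nor were Psmg3 (0.38, SE 0.26, adjusted p = 0.300) and Psmg4 (-0.24, SE 0.17, adjusted p = 0.314).

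The activators differed: Psme4 had 329, 303 and 371 CPM with CFZ, against 164, 160 and 162 CPM with DMSO, and all CFZ libraries were higher (log2 fold change 1.04, SE 0.13, edgeR adjusted p = 5.93e-05). Psme3 had 191, 201 and 200 CPM with CFZ, against 172, 196 and 183 CPM with DMSO, and these ranges overlapped (log2 fold change 0.10, SE 0.15, adjusted p = 0.667). Psme4 encodes the nuclear cap PA200 and Psme3 the nuclear cap PA28 gamma.

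Over all 42 genes the lowest CFZ library exceeded the highest DMSO library for 38, against 27.8% of all genes tested, and the reverse held for 3, against 28.1%. Scaling moved this comparison little: 34 genes were higher and 2 lower in all 5 scalings tried (7.91% and 12% of all genes tested), and the median log2 fold change was 0.94 when libraries were scaled to ribosomal protein genes, against -0.10 over all genes.

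Promoter sequence is shown for the 2 most induced genes that hold the core of the antioxidant response element, the motif that NRF1 and its relatives bind with small MAF proteins, and for the gene with the lowest fold change. The windows run from 250 bases before to 50 bases after the annotated start, in the sense of the gene, from RefSeq on GRCm38.p6, and are Psmb3 at chr11:97703184-97703483 (plus strand), Psmc6 at chr14:45329574-45329873 (plus strand) and Psmg1 at chr16:95990911-95991210 (minus strand). Capitals mark matches on either strand to the core (TGACNNNGC or TGAGNNNGC) or to the NF-Y box (CCAAT).
Psmb3: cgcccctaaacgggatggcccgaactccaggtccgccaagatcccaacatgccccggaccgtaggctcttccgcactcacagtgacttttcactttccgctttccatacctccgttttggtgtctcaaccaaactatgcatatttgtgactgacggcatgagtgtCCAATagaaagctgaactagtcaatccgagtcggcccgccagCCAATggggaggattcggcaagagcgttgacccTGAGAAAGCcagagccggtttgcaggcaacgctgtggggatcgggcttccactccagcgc
Psmc6: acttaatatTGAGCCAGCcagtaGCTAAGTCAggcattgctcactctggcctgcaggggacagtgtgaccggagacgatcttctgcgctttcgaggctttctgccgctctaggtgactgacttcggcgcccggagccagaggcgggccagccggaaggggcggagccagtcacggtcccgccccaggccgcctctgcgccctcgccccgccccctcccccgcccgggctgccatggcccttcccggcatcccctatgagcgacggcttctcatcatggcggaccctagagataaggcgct
Psmg1: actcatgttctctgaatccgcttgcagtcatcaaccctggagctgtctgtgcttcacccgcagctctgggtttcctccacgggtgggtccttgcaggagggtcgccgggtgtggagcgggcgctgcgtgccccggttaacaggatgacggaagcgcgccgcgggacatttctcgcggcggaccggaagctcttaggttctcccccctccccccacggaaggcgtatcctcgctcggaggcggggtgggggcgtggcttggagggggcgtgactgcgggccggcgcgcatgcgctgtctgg

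The core in Psmb3 begins 10 bases upstream of the start, after NF-Y boxes at 85 and 43 bases upstream, and the 2 cores in Psmc6 begin 241 and 227 bases upstream. The Psmg1 window held none of the motifs. Of the 42 genes 35 had a promoter in the table, and 17 of these (48.6%) held a core, against 30.8% of all 27025 genes in it. The NF-Y box was in 13 (37.1%), against 41.1% of all genes, and paired units of the heat shock element (TTCNNGAA or GAANNTTC) were in 3 (8.57%), against 17.0%. The CFZ log2 fold change had a median of 1.15 in the proteasome genes with a core and 1.01 in those without. A match describes the letters in the window and does not show binding.

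Genes of the NRF1 pathway and of proteasome partners gave a setting for these values. With CFZ 7 of the 9 NRF1 pathway genes rose and none fell in edgeR (limma-voom, DESeq2 and an unadjusted p under 0.05 also gave 0 lower). Of all genes tested 14.4% were higher and 14.4% lower. Nfe2l1 itself stood at 708, 579 and 592 CPM with CFZ, against 351, 332 and 347 CPM with DMSO, every CFZ library being higher (log2 fold change 0.87, SE 0.17, edgeR adjusted p = 0.00175). The small MAF gene Mafg (1.36) and the segregase gene Vcp (1.16) rose most, and Mafk (0.75, adjusted p = 0.0478) and Sel1l (0.60, adjusted p = 0.0222) least. Ddi2 and Ngly1, which encode the protease and the glycanase that process NRF1, were not called (log2 fold changes of -0.08 and 0.27, adjusted p = 0.719 and 0.243).

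Of 16 partner genes tested 9 rose with CFZ and none fell in edgeR, against 14.4% of all genes tested higher and 14.4% lower. At an unadjusted p under 0.05, 1 was lower, and limma-voom and DESeq2 gave 0 lower. Zfand2a, which encodes the arsenite-inducible proteasome-binding protein AIRAP, rose most, to 546, 432 and 425 CPM with CFZ, against 41.3, 38.0 and 34.5 CPM with DMSO (log2 fold change 3.62, SE 0.22, edgeR adjusted p = 9.91e-08). Zfand5, another zinc finger protein that binds the proteasome, followed (1.47, SE 0.27, adjusted p = 0.00113). The shuttle factor genes Rad23b (0.74, adjusted p = 0.0205) and Ubqln2 (0.39, adjusted p = 0.0178) rose least. Psmf1, which encodes the inhibitor PI31, stood at 56.2 ± 1.39 CPM with CFZ and 31.5 ± 1.83 CPM with DMSO (log2 fold change 0.84, SE 0.15, adjusted p = 0.000728). None of the 6 immunoproteasome and tissue-variant genes tested was called with CFZ by edgeR, limma-voom or DESeq2, nor had any an unadjusted p under 0.05 in edgeR. Psmb8 averaged 0.0290 CPM with CFZ and 0.0339 with DMSO, and Psmb11 0.0186 and 0 CPM. These levels were too low for the tests to decide on either gene.

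Doxorubicin alone moved proteasome genes in both directions. With DOX 19 of the 42 were higher and 11 lower than with DMSO, against 36.1% and 31.3% of all genes tested, so the shares of genes called were near those of all genes. The median log2 fold change was 0.29, against 0.14 over all genes. Subcomplexes differed in their counts: 11 of 14 core genes were higher and none lower in edgeR (limma-voom, DESeq2 and an unadjusted p under 0.05 also gave 0 lower), while 2 of 8 lid genes were higher and 4 lower. This rested on the scaling. Scaled to ribosomal protein genes, 6 of 7 alpha ring, 5 of 7 beta ring and 7 of 8 lid genes were lower in edgeR, and 0 were higher. Of the 16648 genes tested 9075 were then lower and 2232 higher. The highest were Pomp (log2 fold change 0.94, SE 0.17, edgeR adjusted p = 0.000174), the lid gene Psmd8 (0.91, SE 0.14, adjusted p = 5.91e-05) and Psma7 (0.75, SE 0.14, adjusted p = 0.000278).

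The levels show what lies behind these values. Pomp stood at 195, 191 and 140 CPM with DOX, against 87.6, 94.2 and 92.1 CPM with DMSO. Psmd8 (ENSMUSG00000030591, chromosome 7, 28873613 to 28880126, minus strand) stood at 221, 203 and 163 CPM with DOX, against 105, 109 and 99.5 CPM with DMSO. For both genes every DOX library was higher, and DOX 3 was the lowest of its group.

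The lowest was Psmd5 (ENSMUSG00000026869, chromosome 2, 34739746 to 34764980, minus strand), with 23.0, 28.9 and 34.8 CPM with DOX, against 101, 105 and 102 CPM with DMSO. All DOX libraries lay far under the DMSO libraries (log2 fold change -1.82, SE 0.16, edgeR adjusted p = 3.02e-07). Adrm1 had 52.6, 62.1 and 47.6 CPM with DOX, against 121, 136 and 122 CPM with DMSO (log2 fold change -1.22, SE 0.14, adjusted p = 4.14e-06). Psmg3, the least abundant of the 42, had 2.38, 2.38 and 2.71 CPM with DOX, against 4.91, 5.97 and 6.5 CPM with DMSO (log2 fold change -1.21, SE 0.27, adjusted p = 0.00107). Neither gene's groups overlapped.

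The catalytic genes had small changes with DOX. Psmb5 stood at 55.8, 57.0 and 39.7 CPM with DOX, against 37.1, 40.7 and 38.2 CPM with DMSO (log2 fold change 0.39, SE 0.15, edgeR adjusted p = 0.0351), and the groups overlapped, DOX 3 lying below DMSO 2. That call was lost without DOX 1, DOX 2, DMSO 1, DMSO 2 or DMSO 3 (adjusted p up to 0.152). Psmb6 rose (0.59, SE 0.14, adjusted p = 0.00218). Psmb7 was not called (0.36, SE 0.16, adjusted p = 0.0647, 0.0425 with the replicate block and 0.00351 without DOX 3), nor was Psma6 (0.36, adjusted p = 0.0564, and 0.0294 with the block).

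Rises with DOX rested on the scaling and falls in part. Under all 5 scalings none of the 42 genes was higher, against 13.4% of all genes tested, and 4 were lower (Psmd5, Adrm1, Psme4 and Psmg3), against 22.3%. Scaled to ribosomal protein genes, 0 were higher and 36 lower in edgeR (0 and 37 at an unadjusted p under 0.05), beside 2232 higher and 9075 lower of the 16648 genes tested. The median was then -0.61, against -0.73 over all genes. The count of genes higher was 12 without DOX 1, without DOX 2 and without DMSO 1, and the count lower was 7 without DOX 3.

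**Figure D2:**
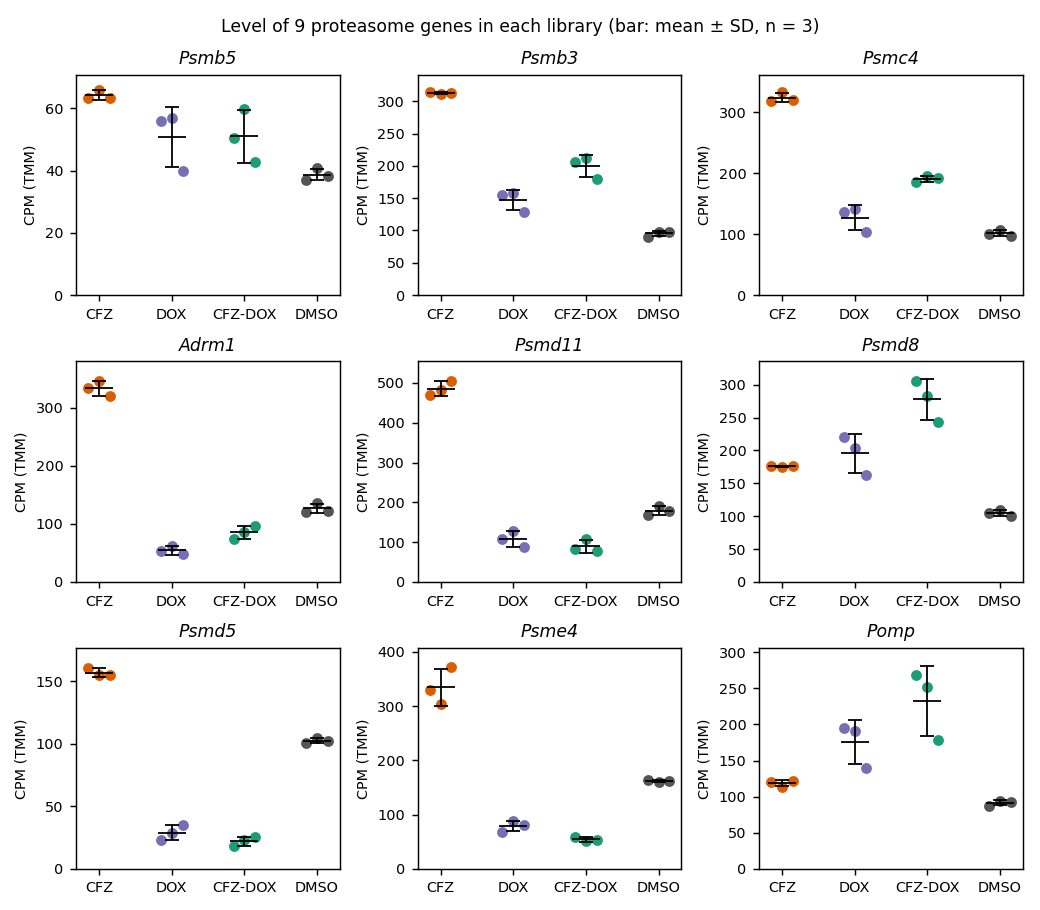
Level in CPM (y axis, from 0, TMM-scaled) of 9 proteasome genes in each library (points) with CFZ, DOX, CFZ-DOX and DMSO; black bars are the mean ± SD of 3 libraries. Psmb5, Psmb3, Psmc4, Adrm1, Psmd11, Psmd5 and Psme4 were highest in the CFZ libraries, and the mean of Psmd8 and of Pomp was highest with CFZ-DOX.

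With both drugs proteasome genes again lay on both sides of DMSO. Of the 42, 19 were higher with CFZ-DOX and 12 lower than with DMSO, against 39.3% and 35.7% of all genes tested, and the median was 0.29, against 0.09 over all genes. The highest were Psmd8, at 306, 283 and 244 CPM with CFZ-DOX, against 105, 109 and 99.5 CPM with DMSO (log2 fold change 1.41, SE 0.14, edgeR adjusted p = 6.40e-07), Pomp (1.35, SE 0.17, adjusted p = 4.74e-06) and Psma7 (1.16, SE 0.14, adjusted p = 3.64e-06). The lowest was Psmd5, at 17.9, 22.8 and 25.2 CPM with CFZ-DOX, against 101, 105 and 102 CPM with DMSO (log2 fold change -2.22, SE 0.16, adjusted p = 3.48e-08). Psme4 had 59.4, 50.6 and 52.9 CPM with CFZ-DOX, against 164, 160 and 162 CPM with DMSO (log2 fold change -1.58, SE 0.14, adjusted p = 1.60e-07). For these genes no CFZ-DOX library fell inside the DMSO range. Psmg2 had 9.77, 7.45 and 8.83 CPM with CFZ-DOX, against 23.1, 23.7 and 23.8 CPM with DMSO, all lower (log2 fold change -1.44, SE 0.15, adjusted p = 1.20e-06).

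Of the catalytic genes Psmb6 was higher with CFZ-DOX (log2 fold change 1.03, SE 0.14, edgeR adjusted p = 1.59e-05), as was Psmb5 (0.40, SE 0.15, adjusted p = 0.0307), and Psmb7 was not called (0.33, SE 0.16, adjusted p = 0.0767, and 0.00680 without CFZ-DOX 3). The Psmb5 call was lost without CFZ-DOX 1, CFZ-DOX 2, DMSO 1, DMSO 2 or DMSO 3 (adjusted p up to 0.162). Under all 5 scalings 0 of the 42 were higher, against 11.1% of all genes tested, and 5 lower (Psmd5, Psme4, Psmg2, Psmg3 and Psmd11), against 24.8%. Scaled to ribosomal protein genes, 0 were higher and all 42 lower in edgeR (0 and 42 at an unadjusted p under 0.05), beside 1852 higher and 11427 lower of the 16648 genes tested. The median was then -1.38, against -1.56 over all genes.

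Adding doxorubicin to carfilzomib was accompanied by lower levels of most proteasome genes. With CFZ-DOX 3 of the 42 were higher and 30 lower than with CFZ, against 40.4% and 36.9% of all genes tested, and 16 were lower by at least 2-fold, against 25.5%. The median log2 fold change was -0.75, against 0.09 over all genes. The lowest were Psmd5 at 17.9, 22.8 and 25.2 CPM with CFZ-DOX, against 161, 155 and 155 CPM with CFZ (log2 fold change -2.84, SE 0.16, edgeR adjusted p = 5.53e-09), and Psme4 at 59.4, 50.6 and 52.9 CPM with CFZ-DOX, against 329, 303 and 371 CPM with CFZ (-2.62, SE 0.14, adjusted p = 3.09e-09). Psmd11 (ENSMUSG00000017428, chromosome 11, 80319441 to 80364074, plus strand), a lid gene, had 83.0, 108 and 76.7 CPM with CFZ-DOX, against 469, 481 and 506 CPM with CFZ (-2.45, SE 0.17, adjusted p = 2.08e-08). The CFZ-DOX libraries were all lower for these genes, with no overlap.

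The 3 genes that were higher with CFZ-DOX than with CFZ were Pomp (log2 fold change 0.97, SE 0.17, edgeR adjusted p = 8.80e-05), Psmg4 (0.84, SE 0.17, adjusted p = 0.000393) and Psmd8 (0.66, SE 0.14, adjusted p = 0.000580). Pomp stood at 269, 252 and 178 CPM with CFZ-DOX, against 120, 114 and 122 CPM with CFZ, every CFZ-DOX library being higher. Psmb5 was not called, at 50.4, 59.6 and 42.8 CPM with CFZ-DOX, against 63.3, 66 and 63.3 CPM with CFZ (-0.33, SE 0.15, adjusted p = 0.0614, and 0.0195 without CFZ-DOX 2). Psmb7 was lower (-0.67, SE 0.16, adjusted p = 0.00175), and Psmb6 was not called (-0.16, SE 0.14, adjusted p = 0.332). Under all 5 scalings 18 genes were lower and 0 higher, against 25.3% and 13.3% of all genes tested. Ribosomal scaling left 0 higher in edgeR, also at an unadjusted p under 0.05, beside 2219 higher and 10873 lower of the 16648 genes tested. It put the median at -2.30, against -1.46 over all genes.

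In the main edgeR fit, carfilzomib in cells that also received doxorubicin changed few proteasome genes. With CFZ-DOX 7 of the 42 were higher and 3 lower than with DOX, against 10.3% and 12% of all genes tested, and the median was 0.03, as over all genes (0.03). The highest were Adrm1, at 73.2, 85.1 and 96.9 CPM with CFZ-DOX, against 52.6, 62.1 and 47.6 CPM with DOX (log2 fold change 0.65, SE 0.14, edgeR adjusted p = 0.00539), Psmd4 (0.64, SE 0.14, adjusted p = 0.00643) and Psmc4 (0.59, SE 0.13, adjusted p = 0.00721). The lowest were Psmg2, at 9.77, 7.45 and 8.83 CPM with CFZ-DOX, against 15.2, 16.3 and 12.5 CPM with DOX (-0.75, SE 0.15, adjusted p = 0.00403), Psma5 (-0.56, SE 0.12, adjusted p = 0.00585) and Psme4 (-0.53, SE 0.13, adjusted p = 0.0120, and 0.0523 without DOX 2). The CFZ-DOX and DOX libraries did not overlap for Adrm1 or Psmg2. Of the catalytic genes Psmb6 was higher (0.44, SE 0.14, edgeR adjusted p = 0.0415), a call that was lost without DOX 2, DOX 3, CFZ-DOX 1 or CFZ-DOX 2 (adjusted p up to 0.205) and turned to -0.31 under ribosomal scaling. Psmb5 (0.00, SE 0.15, adjusted p = 0.992) and Psmb7 (-0.02, SE 0.16, adjusted p = 0.932) were not called. In the fit blocked by replicate number the counts were 10 and 4, adding Psmc3 (adjusted p = 0.0236), Psmd13 (0.0351), Pomp (0.0377) and Psmd5 (0.0345).

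These calls depended on the fit. Fitted on the 6 compared libraries alone, 0 genes were higher and 0 lower in edgeR, while the unadjusted p was under 0.05 for 4 and 3. On all 12 libraries DESeq2 gave 11 and 3. The count higher was 3 without CFZ-DOX 1, without CFZ-DOX 2 and without DOX 3, and the count lower was 5 without DOX 3. Under all 5 scalings 0 were higher and 3 lower, against 0.757% and 8.34% of all genes tested (0 higher at an unadjusted p under 0.05 with ribosomal scaling). Ribosomal scaling put 38 of the 42 lower in edgeR, beside 8808 of the 16648 genes tested. The median was then -0.73, against -0.75 over all genes.

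The effect of CFZ differed between cells with and without DOX. Tested as an interaction, which is the log2 fold change of CFZ-DOX against DOX minus that of CFZ against DMSO, 33 of the 42 genes were lower and 0 higher in edgeR, against 11.2% and 8.46% of all genes tested. Limma-voom, DESeq2 and an unadjusted p under 0.05 likewise gave 0 higher. The median difference was -0.95, against 0.04 over all genes, and 19 were lower by at least 2-fold, against 6.23% of all genes tested. Under all 5 scalings 26 were lower, against 6.58% of all genes tested, and 0 higher, against 1.47%. Leaving out each library in turn gave 27 to 34 genes lower.

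**Figure D3:**
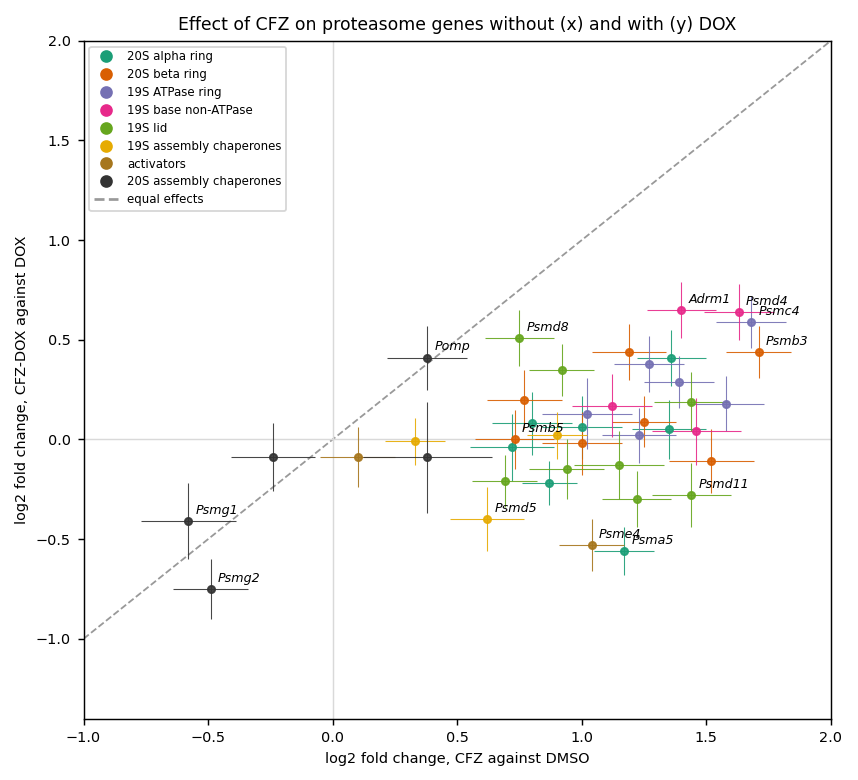
Log2 fold change of CFZ against DMSO (x axis) and of CFZ-DOX against DOX (y axis) for the 42 proteasome genes, colored by subcomplex, with bars of ± 1 SE; the dashed line marks equal effects. The 33 genes called in the interaction lie below the line, and Psmg1, Psmg4 and Pomp lie on or just above it.

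By subcomplex the interaction was called lower for 7 of 7 alpha ring, 6 of 7 beta ring, 6 of 6 ATPase, 4 of 4 other base, 7 of 8 lid, 2 of 3 chaperone genes of the 19S base and 1 of 2 activator genes. The largest differences were those of Psma5 (-1.73, SE 0.17, edgeR adjusted p = 3.88e-05), Psmd11 (-1.72, SE 0.23, adjusted p = 0.000280) and Psmb2 (-1.63, SE 0.23, adjusted p = 0.000425). Psma5 (ENSMUSG00000068749, chromosome 3, 108164242 to 108187290, plus strand) stood at 82.7, 88.1 and 74.2 CPM with CFZ-DOX and 123, 130 and 108 CPM with DOX. Without DOX it stood at 221, 214 and 213 CPM with CFZ and 89.7, 102 and 96.6 CPM with DMSO. CFZ thus went with a lower level in the presence of DOX and a higher level in its absence, without overlap in either pair.

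None of the 5 chaperone genes of the 20S core was called in the interaction by edgeR, limma-voom or DESeq2, nor had any an unadjusted p under 0.05 in edgeR. With ribosomal scaling edgeR called 2 lower, Psmg2 (-0.94, adjusted p = 0.0104) and Pomp (-0.65, adjusted p = 0.00875), and without CFZ-DOX 3 it called Psmg3 lower (adjusted p = 0.0298). Ribosomal scaling put 5217 of the 16648 genes tested lower in the interaction. The 3 highest values were those of Psmg1 (0.17, SE 0.27, edgeR adjusted p = 0.698), Psmg4 (0.16, SE 0.24, adjusted p = 0.682) and Pomp (0.03, SE 0.23, adjusted p = 0.951), and each was below 0 with ribosomal scaling. Psmb5 was called (-0.73, SE 0.22, adjusted p = 0.0312), but leaving out any 1 of 9 libraries ended that call: CFZ 1 to 3, DMSO 1 to 3, DOX 1, DOX 2 or CFZ-DOX 1 (adjusted p up to 0.0745). Psmb7 (-1.03, SE 0.23, adjusted p = 0.00726) and Psmb6 (-0.75, SE 0.20, adjusted p = 0.0191) were also called, the call of Psmb6 being lost without DOX 2 or DMSO 1 (adjusted p up to 0.0537). Across the 42 genes the CFZ effects with and without DOX, from separate libraries that share the model and its scaling, had a Spearman rho of 0.45, against 0.15 over the 16648 genes, as a description.

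The effect of CFZ on Nfe2l1 was also lower with DOX, with an interaction of -1.22 (SE 0.24, edgeR adjusted p = 0.00350). It stood at 431, 296 and 330 CPM with CFZ-DOX, against 536, 401 and 410 CPM with DOX, and these ranges overlapped (log2 fold change -0.35, SE 0.17, adjusted p = 0.151). In all, 4 of the 9 NRF1 pathway genes and 7 of 16 partner genes were lower in the interaction, against 11.2% of all genes tested. Under all 5 scalings 2 NRF1 pathway genes and 5 partner genes were lower, against 6.58% of all genes tested. None of the NRF1 pathway genes was higher in edgeR, and none of the partner genes, of which DESeq2 called 1 higher and 1 had an unadjusted edgeR p under 0.05. Psmf1 was not called (-0.51, SE 0.21, adjusted p = 0.0957), at 63.3 ± 12.6 CPM with CFZ-DOX and 50.4 ± 4.56 CPM with DOX.

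Summed over subunits, on the scale of CPM per kilobase of exon (RPKM), the core genes reached 1660 ± 20 with CFZ, 1038 ± 158 with DOX, 1097 ± 136 with CFZ-DOX and 751 ± 24.3 with DMSO (SD, n = 3). The 18 genes of the 19S particle summed to 2329 ± 56.9 with CFZ, 1071 ± 162 with DOX, 1253 ± 129 with CFZ-DOX and 1001 ± 40.2 with DMSO. The 5 chaperone genes of the core summed to 57.2 ± 0.864 with CFZ, 78.7 ± 13.2 with DOX, 81.1 ± 12.5 with CFZ-DOX and 63.0 ± 2.12 with DMSO. With the main (TMM) scaling the subunit sums were thus highest in the CFZ group, and the chaperone sum was lowest there. The sums were not computed under the other scalings, so their order in those is not known. Under ribosomal scaling the chaperone median log2 fold change relative to DMSO was -0.33 (CFZ), -1.06 (DOX) and -2.22 (both drugs). Of the 5 chaperone genes, 2 lay above their DMSO range in every CFZ library and 3 below it.

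**Figure D4:**
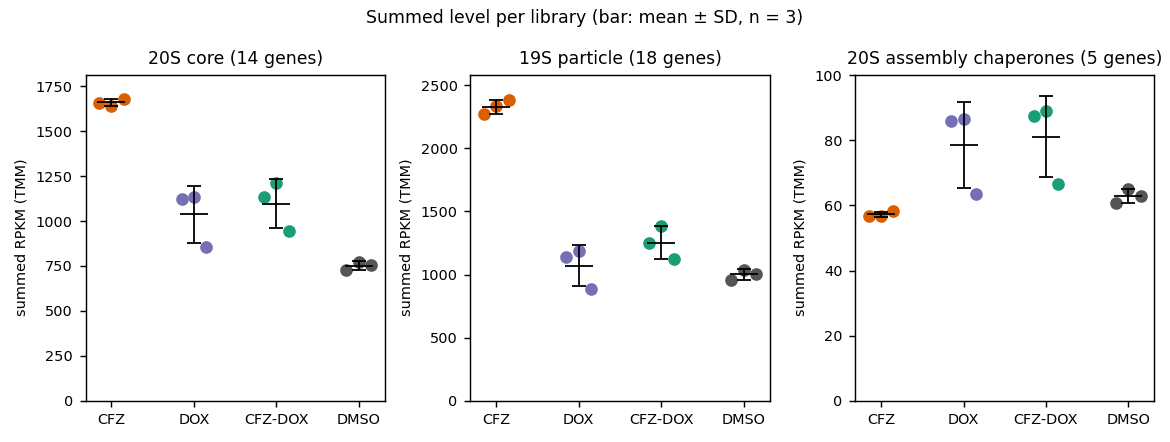
Summed level (y axis, RPKM from 0) of the genes of the 20S core, the 19S particle and the 20S assembly chaperones in each library (points) with CFZ, DOX, CFZ-DOX and DMSO; black bars are the mean ± SD of 3 libraries. CFZ libraries of the 19S particle sit between 2270 and 2384, above all others, and DOX 3 is the lowest DOX library in each panel.

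Among the 18 listed genes of the 19S particle, whose products assemble in equal numbers, levels spanned a smaller ratio without DOX. Those of the 20S core did not. In the 19S particle the ratio of the highest to the lowest gene's mean level (RPKM) was 5.29 with CFZ (Psmc5 over Psmd8) and 4.38 with DMSO (Psmc1 over Psmc2). It was 12.4 with DOX (Psmd2 over Adrm1) and 12.2 with CFZ-DOX (Psmd2 over Psmd11). In the 20S core the ratio was 5.08 with CFZ, 4.03 with DOX, 4.37 with CFZ-DOX and 4.27 with DMSO. These ratios rest on the exon lengths in the deposited table, which count every annotated exon, and were not tested.

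Sem1, in contrast to most lid genes, stood at 164, 130 and 109 CPM with DOX and 233, 201 and 143 CPM with CFZ-DOX, against 62.8, 68.1 and 66.6 CPM with DMSO. Every library with DOX was higher, with log2 fold changes of 1.03 and 1.55 (edgeR adjusted p = 0.000176 and 3.03e-06), neither of which held in all 5 scalings.

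In the immunoproteasome Psmb8, Psmb9 and Psmb10 replace the catalytic subunits, and their levels without DOX differed. Psmb8 had 3.66, 4.46 and 6.11 CPM with DOX and 7.08, 5.91 and 10.2 CPM with CFZ-DOX, against 0.0271, 0.0459 and 0.0286 CPM with DMSO. Psmb9 averaged 7.23 ± 2.05 CPM with DOX and 8.54 ± 2.37 CPM with CFZ-DOX, against 0.869 ± 0.244 CPM with DMSO. Psmb10 was present without DOX: it averaged 14.3 ± 1.28 CPM with DOX and 14.9 ± 1.72 CPM with CFZ-DOX, against 8.61 ± 0.581 CPM with DMSO (SD, n = 3 each), and its log2 fold changes of 0.73 and 0.79 became -0.15 and -0.87 under ribosomal scaling. All 6 genes tested of that list were higher with DOX and with CFZ-DOX than with DMSO in edgeR, against 36.1% and 39.3% of all genes tested. Of these, 3 were higher in all 5 scalings in each case, against 13.4% and 11.1%. Psmb11 averaged 0 CPM with DMSO, 0.430 with DOX and 0.532 with CFZ-DOX. Psmb8 and Psmb11 could pass the low-count filter only through libraries with DOX, so their being higher there was set by the filter. Both are among the 6 genes tested, so the counts of this list beside the shares of all genes cannot decide whether the list as a whole rose.

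**Figure D5:**
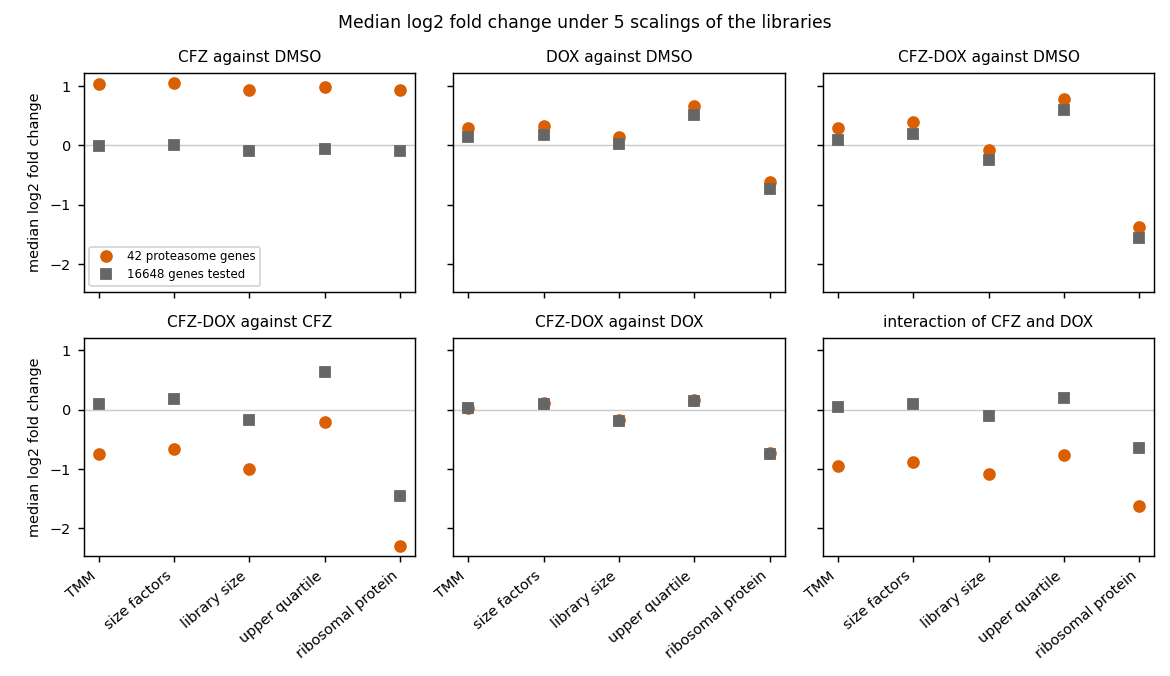
Median log2 fold change (y axis) of the 42 proteasome genes (circles) and of the 16648 genes tested (squares) under 5 ways of scaling the libraries (x axis), with a panel for each comparison. The circles stay near 1 for CFZ against DMSO and lie below the squares for CFZ-DOX against CFZ and for the interaction, while in the other comparisons circles and squares move together.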

How the data were processed

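RNA was sequenced from 12 libraries, 3 in each of 4 groups. The authors' deposited table holds raw read counts per gene, which per the submitters' processing notes came from featureCounts (Subread 2.0.2) after alignment with STAR 2.7.9a and the use of Trimmomatic 0.39, with the build GRCm39 (mm39); the annotation release and the strand setting are not given in the sources used here. The deposited table also gives each gene's length in bases, a value of another kind (the summed length of its exons), used for RPKM.

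Counts were tested with edgeR 4.0.16 (R 4.3.3): genes kept by a minimum count of 10 and a total of 15, TMM scaling, a robust quasi-likelihood fit of the 4 groups on all 12 libraries, and Benjamini-Hochberg adjustment over the 16648 genes tested, with calls at an adjusted p under 0.05. CPM are counts scaled to the TMM-adjusted library size. SE was taken as the size of the log2 fold change over the root of its F statistic. Gene IDs were named through the GENCODE and RefSeq tables supplied (52073 of 56980 matched); the partner gene Paaf1 had no match and was not analysed here. Psma8 did not pass the filter.

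Depth was 28278879 to 42033993 counts per library. Replicate libraries differed beyond counting noise (chi-square per degree of freedom at least 12.37), so none was counted as a duplicate. Same-numbered libraries deviated together in CFZ and DMSO (r = 0.38, 0.30 and 0.42), CFZ and DOX (0.26, 0.18 and 0.22), DOX and DMSO (0.25, 0.26 and 0.21) and DOX and CFZ-DOX (0.58, 0.35 and 0.65). All were over 0.1, so the numbers may pair these, though the labels state no pairing. The main fit held no replicate term, so its p-values do not use this pairing. The replicate block was fitted as an alternative.

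The members, lists, motifs and tests were chosen with earlier results of these data known. All 42 genes are named; outside CFZ against DMSO, statistics are given for the 3 highest and 3 lowest genes and for Psmb5, Psmb6 and Psmb7, and other genes with values were chosen after their values were seen. Alternatives were size factors, library size, upper-quartile and ribosomal protein scaling (76 genes), DESeq2 1.42.0, limma-voom 3.58.1, filters, a stricter adjusted p of 0.01, the replicate block, the compared groups alone, and each library left out. The fit was tested on simulated data. Promoters were those of RefSeq on GRCm38.p6, another build than that of the counts; gene coordinates are those of the deposited table. No protein sequence is shown.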

Additional observations from a re-analysis of the deposited data

Results flagged for a closer look

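For 33 of the 42 proteasome genes the effect of CFZ with DOX was lower than that without DOX (edgeR interaction test, adjusted p under 0.05), which is a difference between the 2 settings of the same contrast. The difference in log2 fold change (with DOX minus without DOX) was -1.73 for Psma5, -1.72 for Psmd11, -1.63 for Psmb2 and -0.73 for Psmb5. In the cells with DOX, library 3 of both groups stood apart from the others, and the number of genes was 34 without DOX 3 and 34 without CFZ-DOX 3; ribosomal protein transcripts took 10.0% of counts with CFZ-DOX and 6.85% with DOX, and their part in the difference was not tested.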

How the results depend on the processing

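Counts are of the 42 proteasome genes, and directions are log2 fold changes. In CFZ against DMSO the count higher stayed within 1.5 times under every alternative; the count lower (2) became 1 with no filter, 0 at an adjusted p under 0.01, and 0 to 2 with 1 library left out. With ribosomal protein scaling 0 genes were higher in both comparisons of DOX-treated cells with DMSO and in those of the combination with each single drug, and the counts lower were 36, 42, 42 and 38. Of the 16648 genes tested 9075, 11427, 10873 and 8808 were lower, in the same order. With upper-quartile scaling the counts lower were 4 for DOX and 5 for both drugs relative to DMSO, and 18 for both drugs relative to CFZ, with 8 higher against CFZ. DOX against DMSO had 12 higher at an adjusted p under 0.01, and 12 to 25 higher and 7 to 11 lower with 1 library left out. CFZ-DOX against DMSO had 12 higher with library size scaling, and 14 to 24 higher and 12 to 13 lower with 1 library left out. CFZ-DOX against DOX (7 higher, 3 lower) had 11 higher with size factors and with DESeq2, 3 higher with library size scaling, with no filter and at an adjusted p under 0.01, 8 lower with library size scaling, 0 and 0 in the compared groups alone, and 3 to 10 higher and 2 to 5 lower with 1 library left out.

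With ribosomal protein scaling the direction turned for 25 of the 42 genes (17 of them called) in DOX against DMSO, 27 (19 called) in CFZ-DOX against DMSO, 7 (3 called) for both drugs relative to CFZ, 23 (7 called) relative to DOX, 3 (0 called by edgeR) in the interaction and 0 in CFZ against DMSO. Among the genes singled out these were, in DOX against DMSO, Psma7 (-0.15), Psmb5 (-0.50), Psmb6 (-0.30) and Psmb7 (-0.54), and in CFZ-DOX against DMSO Psma7 (-0.50), Pomp (-0.32), Psmd8 (-0.25), Psmb5 (-1.26), Psmb6 (-0.61) and Psmb7 (-1.33, and -0.03 with library size scaling). They also turned in both drugs relative to CFZ for Psmd8 (-0.91), Psmg4 (-0.72) and Pomp (-0.61), in CFZ-DOX against DOX for Psmc4 (-0.15), Psmd4 (-0.12) and Adrm1 (-0.09), and in the interaction for Pomp (-0.65, and -0.11 with library size scaling), Psmg4 (-0.52) and Psmg1 (-0.48). With 1 library left out the uncalled interactions ran from -0.12 to 0.19 for Pomp and from -0.03 to 0.32 for Psmg1. The shift of the median of all genes under ribosomal scaling was -0.10 for CFZ, -0.87 for DOX and -1.65 for both drugs (all relative to DMSO), -1.55 for the combination over CFZ, -0.78 over DOX, and -0.69 for the interaction; the cause of these dependences was not tested.

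With the replicate number as a block, the counts higher and lower were 37 and 2 for CFZ, 21 and 11 for DOX and 20 and 12 for both drugs relative to DMSO, 3 and 33 for both drugs relative to CFZ, 10 and 4 relative to DOX, and 0 and 34 in the interaction. In CFZ and CFZ-DOX (r = 0.26, 0.019 and 0.099) and in CFZ-DOX and DMSO (0.29, 0.058 and 0.080) same-numbered libraries did not deviate together at every number. Low r values cannot show that these libraries were unpaired. Depth limits the genes of few counts, such as Psmg3, more than the others.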
